A study of Mus musculus with 9 samples.

Results

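The genes described here are 37 markers and transcription factors of endothelial cells, the cells that line blood and lymphatic vessels. They were taken from a list of names out of 35071 genes measured in the series. The list holds 34 genes of blood vessel endothelium or of endothelium in general and 3 genes used as lymphatic markers (Lyve1, Prox1 and Mmrn1), which are described apart. Each name matched 1 gene of the annotation.

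The study sequenced RNA from the subcutaneous fat of C57BL/6 mice aged 24 weeks, in which the labels place a knockout of AGO1 in endothelial cells, and of WT littermates. Its stated purpose was to look for molecular changes behind a metabolic phenotype. There were 9 libraries, 3 labelled WT, 3 labelled Hete KO and 3 labelled Homo KO, with the KO groups differing from WT in the Ago1 genotype. The promoter that drives the deletion, the sex of the animals and whether each library came from 1 animal are not stated in the labels, so p-values measure only the spread between these samples, which may be technical. The RNA came from whole tissue and holds transcripts of fat cells, stroma and blood beside those of endothelium.

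Endothelial identity is kept by a small set of DNA-binding proteins. ETS family members such as Erg and Fli1 bind the regulatory regions of most endothelial genes, SOX proteins of the F group (Sox7, Sox17 and Sox18) act in arterial and lymphatic development, and Tal1 and Lmo2 form a complex shared with blood-forming cells. Their targets include junction proteins that seal the vessel wall, receptors for growth factors and lipids, and secreted matrix proteins. Lymphatic vessels arise when Sox18 switches on Prox1 in vein endothelium, and in fat they carry fluid and cells away from the tissue.

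Transcripts of other tissues were present in some libraries. Skeletal muscle markers (18 genes, none at 0 in any library) took 3.28, 2.52 and 7.87% of the counts in WT 1, WT 2 and Hete KO 2, and between 0.00877 and 0.391% in the other 6. Liver markers (20 genes) summed to 1209 and 1180 CPM (counts scaled to the normalized library total) in WT 2 and WT 3 and to between 72.5 and 237 in the other 7, where between 0 and 10 of them were at 0. Fat cell markers (10 genes) were detected in every library, at a summed level of 10660 to 15220 CPM. The libraries held 20843427 to 28252001 estimated counts each. Ago1 had 63.4 to 69.9 CPM in the WT libraries and 51.2 to 60.1 in the Hete KO libraries. Homo KO 1, Homo KO 2 and Homo KO 3 had 62.2, 58.6 and 25.8 CPM, so only Homo KO 3 lay below the Hete KO range. The Ago1 difference from WT passed the test in neither KO group (edgeR's quasi-likelihood test, Benjamini-Hochberg adjusted p = 0.699 in Hete KO and 0.441 in Homo KO). The endothelial part of this Ago1 signal cannot be told apart from that of the other cells.

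One member links the list to the microRNA pathway in which Argonaute proteins act. Egfl7, which encodes a secreted protein of the vessel matrix, is the host gene of the endothelial microRNA miR-126a. Argonaute proteins hold such microRNAs and pair them with messenger RNAs through the seed. The mature sequence is shown because it lies inside a member of the list. It is taken from the RefSeq table on GRCm38.p6 at chr2:26591402-26591423 on the plus strand, with its seed (bases 2 to 8) in capitals.
mmu-miR-126a-3p: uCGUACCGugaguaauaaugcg
Its hairpin, at 26591357 to 26591429, lies within Egfl7 (chromosome 2, 26580014 to 26593120, plus strand). Of 19 annotated Egfl7 transcripts, 9 span the hairpin and 1, a retained-intron form named Egfl7-206, has it inside an exon.

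Promoters are shown for 3 members that the results below describe, because the ETS proteins Erg and Fli1 are themselves on the list. They were chosen after the sequences had been seen to hold the motif. Each is the 250 bases before the most downstream start in the RefSeq table (GRCm38.p6) whose window holds it, written on the strand of the gene. The ETS core motif AGGAAG, or its complement CTTCCT on the other strand, is in capitals.
Egfl7 chr2:26583615-26583864 (plus strand): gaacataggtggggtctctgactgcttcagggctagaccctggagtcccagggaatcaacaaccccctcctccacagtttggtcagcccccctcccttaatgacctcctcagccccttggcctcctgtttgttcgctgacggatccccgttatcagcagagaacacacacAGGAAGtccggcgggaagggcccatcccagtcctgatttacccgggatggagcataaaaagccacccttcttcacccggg
Eng chr2:32646345-32646594 (plus strand): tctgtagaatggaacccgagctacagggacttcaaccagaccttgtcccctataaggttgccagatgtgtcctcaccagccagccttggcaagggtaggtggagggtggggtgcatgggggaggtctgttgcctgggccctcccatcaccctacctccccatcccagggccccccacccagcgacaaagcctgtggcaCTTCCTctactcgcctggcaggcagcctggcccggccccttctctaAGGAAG
Erg chr16:95459349-95459598 (minus strand): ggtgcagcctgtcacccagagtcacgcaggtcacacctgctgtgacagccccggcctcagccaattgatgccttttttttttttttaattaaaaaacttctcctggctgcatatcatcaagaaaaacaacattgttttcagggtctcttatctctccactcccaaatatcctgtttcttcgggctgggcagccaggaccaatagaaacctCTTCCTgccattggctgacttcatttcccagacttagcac
The motif stands 80 bases before the start in this Egfl7 promoter, 52 and 6 bases before it in Eng, and 40 bases before it in this Erg promoter. The table matched 19 of the 37 members with 25 promoters. Of these, 11 promoters held AGGAAG on either strand, against 29.5% of 32851 promoters of the same length. ACAAAG, a SOX motif, was in 4 of the 25 against 16.5%, and AGATAA, bound by GATA proteins, in 3 of the 25 against 9.99%. Both strands were searched and matches that share letters were each counted, and a match is a description of these letters and not of binding.

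Levels between genes were compared in TPM, which are scaled to transcript length and library total, as the mean over the 9 libraries. Pecam1 was the most abundant member at 119 TPM, followed by Egfl7 at 101, Cdh5 at 89.9, Ptprb at 64.0, Esam at 57.8 and Acvrl1 at 42.2. Ecscr, Cd93, Cldn5, S1pr1, Fli1, Mmrn2, Ednrb, Lmo2, Eng, Cyyr1, Vwf, Ushbp1, Klf4 and Plvap had between 20.4 and 38.3 TPM in this order. Robo4, Rasip1, Emcn, Sox7, Icam2, Klf2, Sox17, Sox18, Lyve1, Myct1, Clec14a, Erg, Selp and Tal1 had between 1.84 and 19.7 TPM, again in falling order. Prox1 at 0.377, Mmrn1 at 0.172 and Sele at 0.114 TPM were barely detected. Neighbours in this order mostly had ranges over the 9 libraries that overlapped, such as Pecam1 with 88.4 to 184 TPM and Egfl7 with 56.0 to 191 TPM. The receptor phosphatase gene Ptprb had the highest CPM of the list in every library (388 to 694 CPM), but its transcripts are long, with a mean effective length of 10710 bases, so that 3 members lay above it in TPM.

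**Figure D1:**
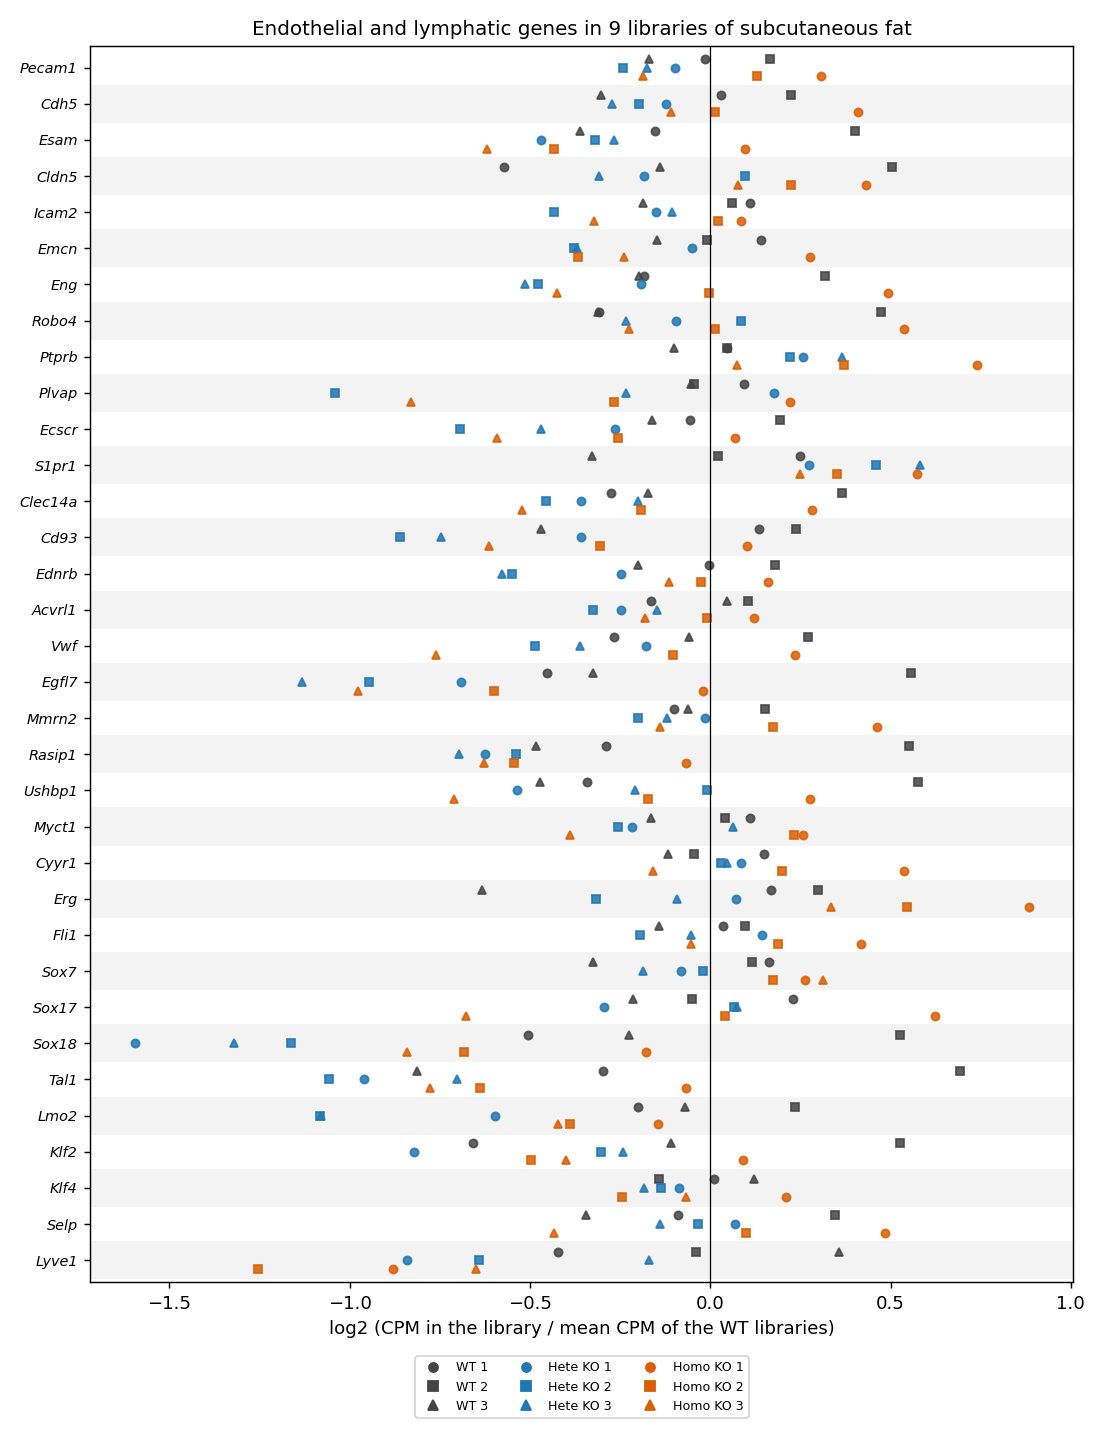
Level of 34 members in each of the 9 libraries, as the log2 ratio of its CPM to the mean CPM of the 3 WT libraries. Each row is a gene, ordered by role, and holds the values of the 9 libraries. Prox1, Mmrn1 and Sele are left out because of their low counts. The values of Homo KO 1 are mostly above the WT mean and those of Hete KO 2 mostly below it, while WT 2 is high within its own group.

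In all, 36 members passed the filter on low counts and were tested, and Sele did not. By edgeR with p-values adjusted over 17968 genes, 0 members passed in any of the 3 comparisons, higher or lower. In Homo KO against WT and in Homo KO against Hete KO it called 0 of all 17968 genes in either direction. In Hete KO against WT, where 0.15% of all genes were called higher and 0.267% lower, 1 member had an unadjusted p under 0.05 in the higher direction (background 9.71%) and 9 in the lower one (background 12.2%). Homo KO against WT had 2 higher (background 7.75%) and 2 lower (background 8.68%), and Homo KO against Hete KO 5 higher (background 2.25%) and 0 lower (background 3.2%). DESeq2 called 6 members lower in Hete KO against WT (Sox18, Lmo2, Egfl7, Prox1, Ednrb and Cd93), where it called 5.72% of all genes lower, and 1 lower in Homo KO against WT (Lyve1), where it called 2.03% lower. It called 0 members higher in these comparisons, against 3.63 and 1.62% of all genes in the same order, and 0 in either direction in Homo KO against Hete KO, against 0.0223% of all genes higher and 0.0223% lower. Limma on log2 TPM called 0 members, and also 0 of all 17968 genes, in each of the 3 comparisons. In such bulk samples, fewer endothelial cells and less RNA per endothelial cell cannot be told apart.

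The direction of the members differed between the comparisons. In Hete KO against WT the log2 fold change was below 0 for 32 of the 36 and above 0 for 4, with a median of -0.24, while 48.6% of all genes were below 0 and 51.4% above, with a median of 0.02. Homo KO against WT had it above 0 for 16 and below 0 for 20, with a median of -0.04, against 49.3 and 50.7% of all genes. Homo KO against Hete KO had 33 above 0 and 3 below, with a median of 0.22, against 50.6 and 49.4%. Each pair of comparisons shares a group of libraries, so these counts are not separate observations.

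These counts moved when single libraries were left out. Of the 33 blood vessel members tested, 16 had their highest value of all 9 libraries in Homo KO 1 and 14 in WT 2. Within the Homo KO group, Homo KO 1 was highest for 32 and Homo KO 3 lowest for 29. Within the WT group, WT 2 was highest for 24 and WT 3 lowest for 23. Without Homo KO 1, the split in Homo KO against Hete KO went from 33 and 3 to 20 above and 17 below 0 (median 0.04), and in Homo KO against WT to 10 above and 27 below (median -0.14). Without WT 2, Hete KO against WT had 10 above and 27 below 0 (median -0.10), and Homo KO against WT 22 and 15 (median 0.08). Homo KO 1 and WT 2 were the highest of their groups for most members, so leaving them out had to lower those groups. Dropping the 3 libraries rich in muscle transcripts left WT 3 alone in its group, and Hete KO against WT then had 19 above and 18 below 0 (median 0.00). In that fit Homo KO against WT had 25 above and 12 below (median 0.23). WT 3 was the lowest WT library for most members, so keeping it alone had to lower the WT reference. With muscle and liver markers as covariates, Homo KO against WT had 26 above and 10 below (median 0.21). Members below WT at an unadjusted p under 0.05 in Hete KO numbered 3 without WT 2. Members above Hete KO in Homo KO at that p numbered 2 without Homo KO 1 and 11 without Homo KO 3. The share of all genes at that p was not counted in these fits, so these member counts have no background.

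The summed level of the 34 blood vessel members was 2027, 2374 and 1786 CPM in the WT libraries, 1938, 1803 and 1871 in the Hete KO libraries, and 2697, 2116 and 1772 in the Homo KO libraries. The 3 groups overlapped. A further 30 blood endothelial genes that are not on the list summed to 2035, 2418 and 1930 CPM in the WT libraries, 2178, 2243 and 2211 in the Hete KO libraries, and 2787, 2353 and 2088 in the Homo KO libraries. Both sums were highest in Homo KO 1. Macrophage markers (12 genes, none at 0) summed to 1117, 1306 and 945 CPM in the WT libraries, 731, 555 and 681 in the Hete KO libraries, and 970, 798 and 679 in the Homo KO libraries, so that every Hete KO library lay below every WT library. Fibroblast and progenitor markers (10 genes, none at 0) summed to 4238 to 5545 CPM in the WT libraries, 1974 to 3413 in the Hete KO libraries and 3625 to 3744 in the Homo KO libraries. Mural cell markers (12 genes, none at 0), of the cells that wrap vessels, ranged from 875 to 1044 CPM over all 9 libraries. The part of the macrophage and fibroblast differences in the member values was not tested.

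**Figure D2:**
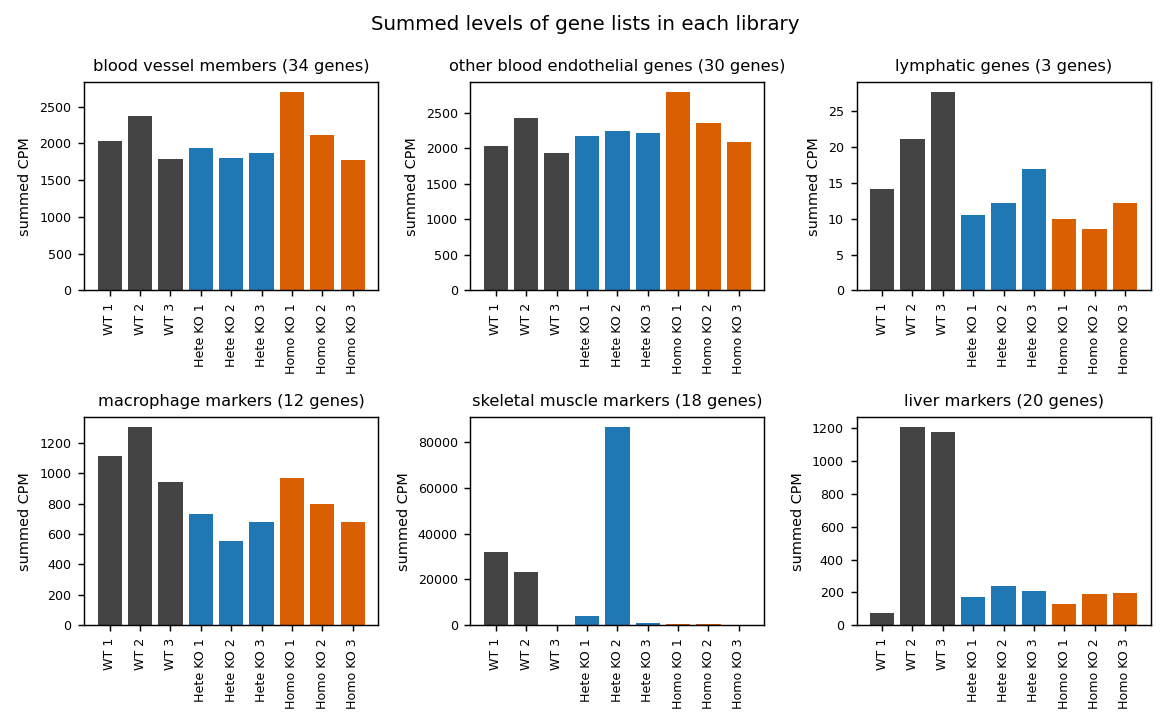
Summed CPM of 6 gene lists in each of the 9 libraries, with 1 panel per list and 1 value per library, ordered by genotype group. The blood vessel members overlap between the groups, while the macrophage markers of all 3 Hete KO libraries (555 to 731 CPM) lie below those of all 3 WT libraries (945 to 1306 CPM).

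No junction or adhesion gene passed the test in any comparison by edgeR, DESeq2 or limma. Pecam1, the adhesion molecule CD31 that is the usual stain for vessels, had 196, 221 and 175 CPM in the WT libraries, 184, 167 and 175 in the Hete KO libraries, and 244, 216 and 173 in the Homo KO libraries. Cdh5, which encodes VE-cadherin of adherens junctions, had 231, 264 and 183 CPM in the WT libraries, 208, 197 and 187 in the Hete KO libraries, and 300, 228 and 210 in the Homo KO libraries. For Pecam1 the 3 groups overlapped, and for Cdh5 every Homo KO library lay above every Hete KO library. The log2 fold change of Pecam1 was -0.17 (SE 0.142, edgeR adjusted p = 0.525) for Hete KO relative to WT, 0.10 (SE 0.142, adjusted p = 0.771) for Homo KO relative to WT and 0.27 (SE 0.142, adjusted p = 0.913) for Homo KO relative to Hete KO. That of Cdh5 was -0.20 (SE 0.167, adjusted p = 0.534), 0.12 (SE 0.167, adjusted p = 0.750) and 0.32 (SE 0.167, adjusted p = 0.909) in the same order. Both turned below 0 in Homo KO against WT without Homo KO 1 or with libraries scaled to the other endothelial genes, and above 0 in Hete KO against WT without the muscle-rich libraries. Homo KO 1 held the highest value of both genes in its group. WT 3, the only WT library left without the muscle-rich ones, held the lowest in WT. Leaving libraries out in this way had to move the differences in these directions.

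The other 3 junction genes had overlapping groups. Esam, an adhesion molecule of tight junctions, had 59.5 ± 16.9 CPM in the WT libraries, 46.7 ± 3.34 in the Hete KO libraries and 48.8 ± 13.1 in the Homo KO libraries (SD, n = 3 each). Cldn5, the main claudin of endothelial tight junctions, had 28.7 ± 10.9, 26.3 ± 3.87 and 34.1 ± 4.26 CPM. Icam2, a ligand of leukocyte integrins, had 5.80 ± 0.621, 4.97 ± 0.591 and 5.57 ± 0.811 CPM. Their adjusted p-values over the 3 comparisons were between 0.392 and 0.994.

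Among the 11 surface receptors and glycoproteins, S1pr1 and Ptprb were the 2 whose level was above WT in both KO groups. S1pr1 (chromosome 3, 115710433 to 115715072) encodes the receptor for sphingosine 1-phosphate, a blood lipid that tightens the vessel barrier. It had 62.4, 53.2 and 41.8 CPM in the WT libraries, 63.4, 72.1 and 78.5 in the Hete KO libraries, and 78.1, 67.0 and 62.3 in the Homo KO libraries. All 3 Hete KO libraries were above all WT libraries, while Homo KO 3 at 62.3 fell just under WT 1 at 62.4. The test gave a log2 fold change of 0.44 (SE 0.156, edgeR adjusted p = 0.146) for Hete KO relative to WT and 0.40 (SE 0.156, adjusted p = 0.259) for Homo KO relative to WT, and neither passed.

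Ptprb (chromosome 10, 116275523 to 116389535) encodes VE-PTP, a phosphatase that acts on VE-cadherin and the angiopoietin receptor Tek. It had 429, 430 and 388 CPM in the WT libraries, 496, 484 and 535 in the Hete KO libraries, and 694, 537 and 437 in the Homo KO libraries. Every KO library lay above every WT library. The fold change against WT was 0.42 on the log2 scale in Homo KO (SE 0.160, edgeR adjusted p = 0.252) and did not pass; in Hete KO the adjusted p was 0.338. Because the comparisons share the WT libraries, the KO groups are not independent of each other here.

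Ednrb, Cd93 and Ecscr were the receptors with the smallest p-values below WT in Hete KO. Ednrb (chromosome 14, 103814625 to 103844402) encodes the endothelin B receptor, which clears endothelin and relays it to nitric oxide. Its level was 70.3, 79.8 and 61.3 CPM in the WT libraries, 59.3, 48.1 and 47.2 in the Hete KO libraries, and 78.8, 69.2 and 65.1 in the Homo KO libraries. The Hete KO libraries all lay below the libraries of both other groups. On the log2 scale the difference was -0.45 (SE 0.135, edgeR adjusted p = 0.107) for Hete KO relative to WT and 0.46 (SE 0.135, adjusted p = 0.899) for Homo KO relative to Hete KO. Homo KO against WT gave 0.01.

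Cd93, a lectin-like receptor that binds the matrix protein Mmrn2 and is also made by myeloid cells, had 226, 243 and 149 CPM in the WT libraries, 161, 113 and 123 in the Hete KO libraries, and 221, 166 and 134 in the Homo KO libraries. The groups overlapped through WT 3. The estimated log2 fold change came to -0.64 (SE 0.231, edgeR adjusted p = 0.152) for Hete KO relative to WT and 0.40 (SE 0.231, adjusted p = 0.933) for Homo KO relative to Hete KO. Ecscr, an endothelial surface protein of cell migration, had 22.5, 26.7 and 20.9 CPM in the WT libraries, 19.4, 14.4 and 16.9 in the Hete KO libraries, and 24.5, 19.5 and 15.5 in the Homo KO libraries. In Hete KO it lay below WT in every library, with a log2 fold change of -0.47 (SE 0.190, edgeR adjusted p = 0.193).

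The remaining 6 surface members had overlapping groups in all 3 comparisons. Eng, the co-receptor endoglin whose promoter is shown above, had 34.5, 48.8 and 34.1 CPM in the WT libraries, 34.3, 28.1 and 27.4 in the Hete KO libraries, and 55.1, 39.0 and 29.2 in the Homo KO libraries. Its log2 fold change came to 0.46 (SE 0.229, edgeR adjusted p = 0.905) for Homo KO relative to Hete KO. Acvrl1, which encodes the receptor kinase ALK1 that works with endoglin, had 40.3 ± 3.85 CPM in the WT libraries, 34.1 ± 2.11 in the Hete KO libraries and 39.8 ± 4.16 in the Homo KO libraries, with a log2 fold change of -0.24 (SE 0.119, edgeR adjusted p = 0.280) for Hete KO relative to WT and 0.22 (SE 0.119, adjusted p = 0.915) for Homo KO relative to Hete KO. Emcn, a sialomucin of capillaries and veins, had 18.0 ± 1.81, 15.1 ± 2.01 and 17.0 ± 4.21 CPM in WT, Hete KO and Homo KO. Plvap, which forms the diaphragms of fenestrae and caveolae, had 29.2 ± 1.72, 24.0 ± 9.43 and 24.9 ± 8.83 CPM. Robo4, a guidance receptor that steadies vessels, had 44.7 ± 15.0, 42.4 ± 4.71 and 49.4 ± 13.8 CPM, and Clec14a, a lectin-like receptor related to Cd93, 17.9 ± 4.49, 14.2 ± 1.29 and 16.7 ± 4.75 CPM.

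Of the 3 secreted and matrix members, Egfl7 was the one whose Hete KO libraries all lay below WT, as did those of 12.1% of all genes. It had 45.7, 91.9 and 49.9 CPM in the WT libraries, 38.7, 32.4 and 28.5 in the Hete KO libraries, and 61.6, 41.2 and 31.8 in the Homo KO libraries. WT 2 stood well above the other WT libraries, and the Homo KO libraries overlapped both other groups. The fitted log2 fold change came to -0.91 (SE 0.2997, edgeR adjusted p = 0.127) for Hete KO relative to WT and -0.48 (SE 0.298, adjusted p = 0.444) for Homo KO relative to WT. Without WT 2 the Hete KO value was -0.51. The retained-intron transcript that holds the miR-126a hairpin had 174, 609 and 294 estimated counts in the WT libraries, 121, 159 and 95.7 in the Hete KO libraries, and 216, 138 and 109 in the Homo KO libraries. Here too WT 2 was highest and the Hete KO libraries were all below WT, but how an estimate divides reads among 19 overlapping transcripts is uncertain, and the mature microRNA was not measured. Egfl7 also overlaps the protein-coding gene Gm20532 on the same strand and Agpat2 on the other strand, and whether reads were counted by strand is not known here. The same limit holds for Rasip1, which overlaps protein-coding Izumo1 on the same strand. Eng, Plvap, Ecscr and Lmo2 each overlap a protein-coding gene on the other strand.

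Vwf and Mmrn2 had overlapping groups. Vwf, the von Willebrand factor that endothelial cells store and release for clotting, had 81.6 ± 15.6 CPM in the WT libraries, 64.7 ± 7.02 in the Hete KO libraries and 73.4 ± 24.0 in the Homo KO libraries. Mmrn2, a matrix protein bound by Cd93 and Clec14a, had 53.6 ± 5.16, 49.7 ± 3.22 and 61.0 ± 12.6 CPM, with a log2 fold change of 0.30 (SE 0.149, edgeR adjusted p = 0.905) for Homo KO relative to Hete KO. Platelet markers (10 genes), counted because Vwf, Selp and Mmrn1 are also platelet proteins, summed to 20.04 to 27.0 CPM in the WT libraries, 17.3 to 19.7 in the Hete KO libraries and 19.9 to 22.4 in the Homo KO libraries, with between 0 and 3 of them at 0 in a library, and their part in the member values was not tested.

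The 4 intracellular and other membrane members included 1 whose Hete KO libraries lay below WT, as did those of 12.1% of all genes. Rasip1, an effector of the small GTPase Rap1 in the opening of vessel lumens, had 42.2, 75.5 and 36.9 CPM in the WT libraries, 33.5, 35.5 and 31.8 in the Hete KO libraries, and 49.2, 35.4 and 33.4 in the Homo KO libraries. The WT mean rested on WT 2. The test gave a log2 fold change of -0.62 (SE 0.253, edgeR adjusted p = 0.194) for Hete KO relative to WT and -0.39 (SE 0.253, adjusted p = 0.461) for Homo KO relative to WT, and without WT 2 these were -0.22 and 0.00. Cyyr1 had 84.7 ± 8.18 CPM in the WT libraries, 88.0 ± 1.77 in the Hete KO libraries and 98.7 ± 23.6 in the Homo KO libraries, a log2 fold change of 0.22 (SE 0.158, edgeR adjusted p = 0.507) for Homo KO relative to WT. Ushbp1 had 42.6 ± 18.1, 36.1 ± 6.50 and 38.5 ± 12.8 CPM, and Myct1 11.7 ± 1.14, 10.7 ± 1.33 and 12.2 ± 2.85 CPM, with groups that overlapped.

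In Hete KO against WT the transcription factors Lmo2 and Sox18 held the smallest p-values of the list. Sox18 (chromosome 2, 181669836 to 181671640, minus strand) encodes a SOX protein of vascular and lymphatic development. It had 10.1, 20.6 and 12.3 CPM in the WT libraries, 4.75, 6.41 and 5.74 in the Hete KO libraries, and 12.7, 8.94 and 8.01 in the Homo KO libraries. The highest Hete KO library lay below the lowest library of both other groups, while Homo KO and WT overlapped. On the log2 scale the difference was -1.35 (SE 0.289, edgeR adjusted p = 0.0619) for Hete KO relative to WT, just short of the threshold of 0.05, and 0.81 (SE 0.287, adjusted p = 0.899) for Homo KO relative to Hete KO. For Homo KO relative to WT it was -0.54 (SE 0.282, adjusted p = 0.374). Over all alternatives the Hete KO value stayed between -1.52 and -0.84, with adjusted p between 0.000442 and 0.421, and it passed in 5 of 24.

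Lmo2 (chromosome 2, 103957986 to 103981878, plus strand) encodes the bridging protein of the complex with Tal1. Its levels were 18.2, 24.7 and 19.97 CPM in the WT libraries, 13.9, 9.90 and 9.92 in the Hete KO libraries, and 19.0, 16.0 and 15.7 in the Homo KO libraries. Again every Hete KO library lay below every WT and every Homo KO library. The estimated log2 fold change came to -0.90 (SE 0.183, edgeR adjusted p = 0.0597) for Hete KO relative to WT, 0.59 (SE 0.183, adjusted p = 0.899) for Homo KO relative to Hete KO and -0.31 (SE 0.181, adjusted p = 0.418) for Homo KO relative to WT. Its Hete KO value ranged from -1.09 to -0.70 over the alternatives (adjusted p between 0.000691 and 0.414) and passed in 5 of 24. Tal1, its partner, had 4.63, 9.22 and 3.25 CPM in the WT libraries, 2.93, 2.74 and 3.50 in the Hete KO libraries, and 5.44, 3.66 and 3.33 in the Homo KO libraries. WT 2 held the high value, the groups overlapped, and the log2 fold change in Hete KO against WT was -0.90 (SE 0.376, edgeR adjusted p = 0.201), or -0.35 without WT 2. Lmo2 and Tal1 are also made by red blood cell precursors. Red cell markers (7 genes, with at most 1 at 0 in a library) summed to 277, 298 and 269 CPM in the WT libraries, 114, 166 and 122 in the Hete KO libraries, and 76.8, 158 and 216 in the Homo KO libraries, so that every KO library lay below every WT library, and their part in the Lmo2 and Tal1 values was not tested.

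Erg and Sox7 were the transcription factors whose Homo KO libraries lay above both other groups. Of all genes, 10.8% had every Homo KO library above WT and 5.73% had every one above Hete KO. Erg, the most endothelium-restricted ETS factor (chromosome 16, 95359169 to 95586593), had 4.72, 5.17 and 2.71 CPM in the WT libraries, 4.41, 3.37 and 3.94 in the Hete KO libraries, and 7.75, 6.13 and 5.30 in the Homo KO libraries. Homo KO 3, its lowest Homo KO library, was just above WT 2. The fitted log2 fold change came to 0.61 (SE 0.276, edgeR adjusted p = 0.312) for Homo KO relative to WT and 0.71 (SE 0.278, adjusted p = 0.899) for Homo KO relative to Hete KO. Sox7 had 33.2, 32.1 and 23.7 CPM in the WT libraries, 28.0, 29.2 and 26.1 in the Hete KO libraries, and 35.6, 33.4 and 36.8 in the Homo KO libraries. Its log2 fold change came to 0.25 (SE 0.138, edgeR adjusted p = 0.393) for Homo KO relative to WT and 0.34 (SE 0.138, adjusted p = 0.899) for Homo KO relative to Hete KO. Sox17, an arterial factor, had 12.2 ± 1.91, 11.8 ± 1.65 and 12.9 ± 5.57 CPM in WT, Hete KO and Homo KO, with groups that overlapped.

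Fli1, the other ETS factor, had 49.1 ± 4.14 CPM in the WT libraries, 48.2 ± 5.73 in the Hete KO libraries and 56.3 ± 9.17 in the Homo KO libraries. Its log2 fold change came to 0.20 (SE 0.141, edgeR adjusted p = 0.507) for Homo KO relative to WT and 0.22 (SE 0.141, adjusted p = 0.936) for Homo KO relative to Hete KO. Klf2 and Klf4, factors that rise in endothelium under flow, overlapped between the groups. Klf2 had 16.9 ± 6.86, 12.5 ± 2.57 and 14.2 ± 3.25 CPM, and Klf4, which other cells of fat also express, 41.6 ± 3.78, 37.9 ± 1.28 and 41.0 ± 6.61 CPM.

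**Figure D3:**
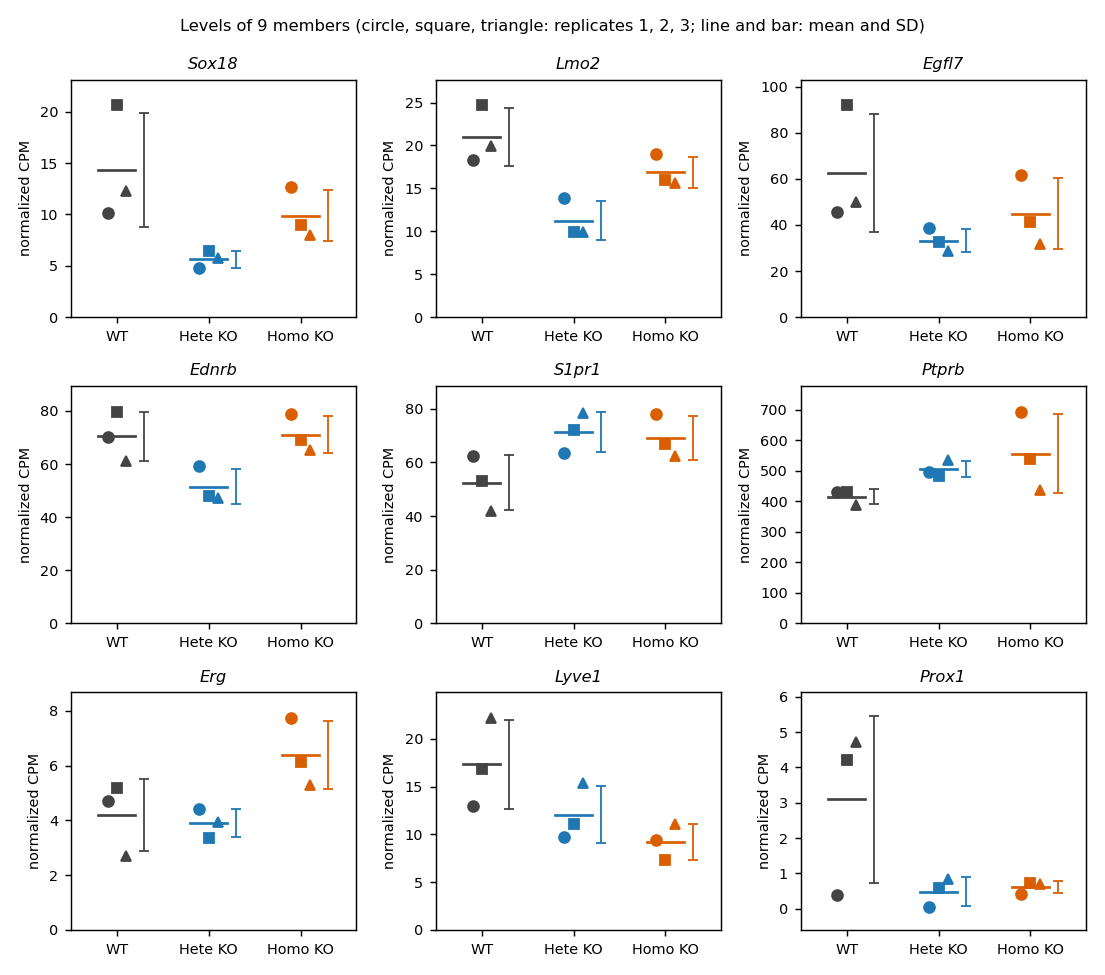
Level of 9 members in CPM on linear axes; points are single libraries of the 3 groups, and the line and bars are the group mean and SD (n = 3). Sox18, Lmo2 and Ednrb are lowest in all 3 Hete KO libraries, Ptprb is lowest in all 3 WT libraries, and Prox1 is high in WT 2 and WT 3 only.

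The selectins, which endothelium shows to leukocytes in inflammation, were low. Selp (P-selectin) had 4.66 ± 1.16 CPM in the WT libraries, 4.56 ± 0.333 in the Hete KO libraries and 4.99 ± 1.54 in the Homo KO libraries, with overlapping groups. Sele (E-selectin) had between 0 and 19 estimated counts per library and was at 0 in WT 3 and Hete KO 2, so a difference was not detectable at this depth.

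The lymphatic genes summed to 14.2, 21.1 and 27.6 CPM in the WT libraries, 10.5, 12.2 and 16.9 in the Hete KO libraries, and 10.0, 8.60 and 12.2 in the Homo KO libraries, and Lyve1 made up most of this. Lyve1 (chromosome 7, 110850607 to 110863239, minus strand) encodes a hyaluronan receptor of lymphatic endothelium that some tissue macrophages also carry. It had 12.9, 16.9 and 22.2 CPM in the WT libraries, 9.68, 11.1 and 15.4 in the Hete KO libraries, and 9.42, 7.27 and 11.1 in the Homo KO libraries. Every Homo KO library lay below every WT library, while Hete KO 3 overlapped WT. Lyve1 had the smallest p of the list in Homo KO against WT, with a log2 fold change of -0.91 (SE 0.253, edgeR unadjusted p = 0.00511, adjusted p = 0.189). Its other differences were -0.52 (SE 0.251, adjusted p = 0.259) for Hete KO relative to WT and -0.38 (SE 0.253, adjusted p = 0.936) for Homo KO relative to Hete KO. The Homo KO value was -0.48 without WT 2 and WT 3, the libraries with liver transcripts, and between -1.07 and -0.68 with single libraries left out. WT 2 and WT 3 held the highest Lyve1 values, and only WT 1 was left, so leaving them out had to shrink the difference. The macrophage sums given above were also lower in the KO groups than in most WT libraries. The part of macrophages in the Lyve1 values was not tested.

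Prox1 (chromosome 1, 190118035 to 190170714, minus strand), the factor that sets lymphatic fate and is also made by liver cells, was high in 2 WT libraries. It had 0.376, 4.21 and 4.71 CPM in the WT libraries, 0.0371, 0.590 and 0.827 in the Hete KO libraries, and 0.408, 0.713 and 0.698 in the Homo KO libraries, which rest on 9, 105 and 132 estimated counts in WT and on 1 to 17 in the 6 KO libraries. WT 1 lay within the range of the KO libraries. WT 2 and WT 3 are also the 2 libraries with liver transcripts, where the liver markers stood at 1209 and 1180 CPM. The test gave a log2 fold change of -2.70 (SE 0.964, edgeR adjusted p = 0.150) for Hete KO relative to WT, -2.34 (SE 0.942, adjusted p = 0.267) for Homo KO relative to WT and 0.35 (SE 0.981, adjusted p = 0.993) for Homo KO relative to Hete KO. Without WT 2 and WT 3 the differences from WT turned to 0.34 and 0.68, each from 1 WT library. These 2 libraries held the highest Prox1 values, so leaving them out had to raise the differences. With muscle and liver markers as covariates the differences were -0.99 and -0.50. The part of liver transcripts in the Prox1 values was not tested.

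Mmrn1, a lymphatic and platelet matrix protein, had 0.877, 0 and 0.713 CPM in the WT libraries, 0.742, 0.464 and 0.681 in the Hete KO libraries, and 0.181, 0.618 and 0.493 in the Homo KO libraries. WT 2 held no count, and no library held more than 21. On the log2 scale the difference was 0.24 (SE 0.938, edgeR adjusted p = 0.912) for Hete KO relative to WT, -0.30 (SE 0.959, adjusted p = 0.904) for Homo KO relative to WT and -0.54 (SE 0.957, adjusted p = 0.984) for Homo KO relative to Hete KO. Its direction against WT turned with single libraries left out, so no difference was detectable at this depth.

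**Figure D4:**
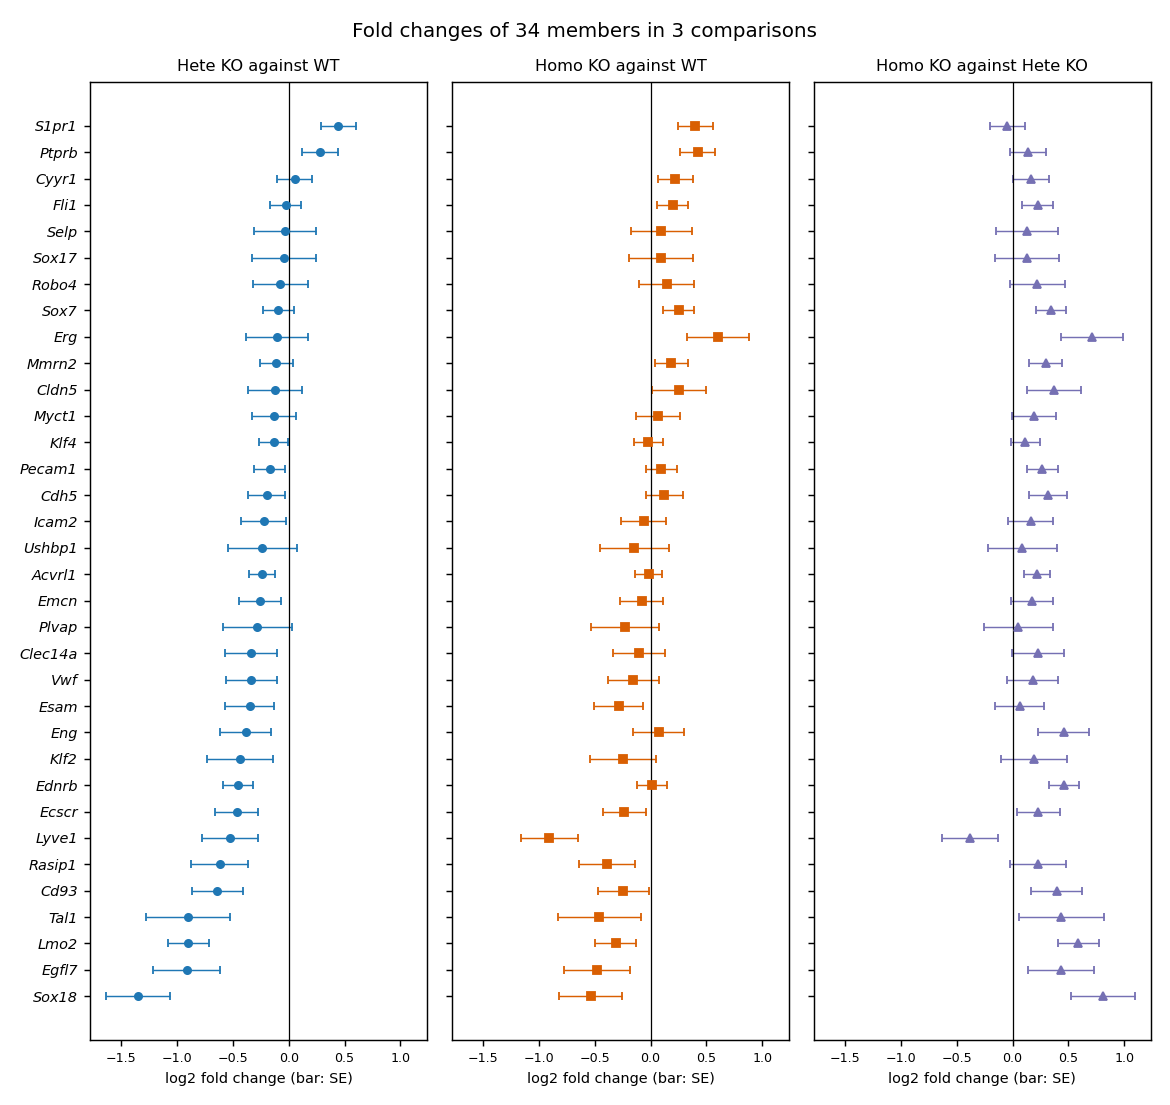
Log2 fold change of 34 members in the 3 comparisons, with bars of 1 SE; Prox1 and Mmrn1 are left out of the 36 tested because of their wide errors. Most points of Hete KO against WT lie below 0 and most of Homo KO against Hete KO above 0, with Sox18 (-1.35) and Lmo2 (-0.90) among the lowest in Hete KO against WT.

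Groups that did not overlap were counted over the list and over all genes. In Hete KO against WT, Ptprb and S1pr1 had all KO libraries above WT (2 members, background 12.6%), and Ecscr, Ednrb, Egfl7, Rasip1, Sox18 and Lmo2 had all of them below (6 members, background 12.1%). In Homo KO against WT, Ptprb, Erg and Sox7 stood above (3 members, background 10.8%) and Lyve1 below (1 member, background 11.2%). In Homo KO against Hete KO, Cdh5, Ednrb, Erg, Sox7, Sox18 and Lmo2 stood above (6 members, background 5.73%) and 0 below (background 5.64%). With libraries scaled to the other endothelial genes in place of all genes, which put the median of all genes at -0.18 in Homo KO against WT and at -0.10 in Homo KO against Hete KO, the members split into 7 above and 29 below 0 in the former and 27 and 9 in the latter. Under that scaling Sox18 was the 1 member called in Hete KO against WT (-1.38, SE 0.235, edgeR adjusted p = 0.0374).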

How the data were processed

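RNA sequencing of whole subcutaneous fat gave 1 deposited table per library. Per the file headers, the authors gave each transcript an estimated count (expected counts, not normalized) and TPM, scaled to effective length and library total. The submitters' processing notes name mm10 as the build, and the quantifier is not given in the sources used here.

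Estimated counts and TPM were summed to 35071 genes by transcript identifier with GENCODE M21 (GRCm38), and counts were then rounded. A count was present for 25581 genes, and 17968 remained after filterByExpr of edgeR. The sources for grouping were the sample titles and genotype labels. All 9 libraries were fitted together with edgeR 4.0.16 (R 4.3.3): TMM normalization, quasi-likelihood F-test, two-sided, Benjamini-Hochberg adjustment over all tested genes, threshold 0.05, 6 residual degrees of freedom. The SE is the log2 fold change divided by the square root of F. CPM are TMM-normalized. Values after ± are SDs over 3 libraries. Scripts were tested on simulated data.

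Alternatives were DESeq2 1.42.0, limma 3.58.1 on log2(TPM + 0.5) and log2(TPM + 0.1), 2 other normalizations, 2 other filters, a length offset, a robust fit, a fit of 2 groups, the replicate number as a block, scaling to other endothelial genes, 3 settings for muscle and liver transcripts, and leaving out each library. Pecam1, Cdh5, the 3 lymphatic genes and the 12 members with the smallest p per comparison are given with their tests, and of other lists up to 4 genes per comparison. Members, lists and alternatives were chosen with earlier results of these data known.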

Additional observations from a re-analysis of the deposited data

How the results depend on the processing

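Over 24 alternatives, 1038 of 1074 values of the members named with their tests kept their direction and their side of the threshold, 15 passed newly and 21 reversed; of 144 counts of called members, 137 stayed at 0. The number of members called lower in Hete KO against WT was 6 by DESeq2, 2 with no filter on low counts, 2 by the robust fit, 1 with scaling to other endothelial genes, and 0 to 2 with single libraries left out (2 without WT 1, Sox18 and Lmo2, and 1 without Hete KO 1, Lmo2). DESeq2 called 1 lower in Homo KO against WT (Lyve1, -0.91, SE 0.266, adjusted p = 0.0258). All genes called lower in Hete KO against WT numbered 48 of 17968 in the main fit, 1024 of 17904 by DESeq2 and 0 by limma. They numbered 168 of 25436 with no filter, 186 of 17968 by the robust fit and 80 of 17968 with the scaling. Without WT 1 they numbered 307 of 18557, and without Hete KO 1 they numbered 601 of 18494. Prox1 and Mmrn1 did not pass the stricter filter, which gave no value for them. The cause of these changes was not tested. In Homo KO against WT, reversed values were Cdh5 -0.0132 and Fli1 -0.063 with the length offset, Fli1 -0.041 and -0.0418 by limma with pseudocounts of 0.5 and 0.1, Pecam1 -0.0861 and Cdh5 -0.0576 with the scaling, Rasip1 0.0937 without muscle-rich libraries, Prox1 0.68 without liver-rich ones, and Egfl7 0.21, Rasip1 0.27 and Sox18 0.19 with covariates. Without single libraries, Pecam1 ranged from -0.0081 to 0.229, Cdh5 from -0.0332 to 0.254 and Mmrn1 from -0.87 to 0.25. In Hete KO against WT, Pecam1 was 0.0443 and Cdh5 0.12 without muscle-rich libraries, Prox1 0.34 and Mmrn1 -0.48 without liver-rich ones, and Mmrn1 ranged from -0.32 to 0.80 without single libraries. In Homo KO against Hete KO, Prox1 ranged from -0.23 to 0.95.

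With the replicate number as a block, 0 members were called in each comparison, and Sox18 and Lmo2 in Hete KO against WT were -1.32 and -0.91 (edgeR adjusted p = 0.0634 and 0.0597). Called genes in that comparison went from 27 higher and 48 lower to 92 and 156. Same-numbered libraries had correlations of deviations from -0.05 to 0.03 for number 1, -0.04 to 0.24 for number 2 and 0.01 to 0.52 for number 3. Libraries with different numbers were not compared in this way. Whether same-numbered libraries share more than a number is therefore not known from these values.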

Other observations

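Endothelial genes outside the list were counted in the same way. Of 30 other blood endothelial genes, edgeR called 0 in each comparison. Of all genes it called 0.15% higher and 0.267% lower in Hete KO against WT, and 0% in either comparison with Homo KO. In Hete KO against WT, 10 of the 30 had an unadjusted p under 0.05 below WT (12.2% of all genes) and 2 above (9.71% of all genes). The 30 genes had a median log2 fold change of -0.25 there, against 0.02 over all genes. Aplnr, the receptor for apelin, had 20.01 ± 1.46 CPM in Hete KO and 42.8 ± 11.8 in WT (-1.10, SE 0.225, edgeR adjusted p = 0.0606). Cd34, a sialomucin that adipose progenitors also carry, had 71.0 ± 10.9 against 102 ± 9.41 CPM (-0.53, adjusted p = 0.0713). Unc5b, a netrin receptor, stood at -0.89 (adjusted p = 0.0890) and Tie1, a receptor tyrosine kinase, at -0.79 (adjusted p = 0.0961). In Homo KO against WT, Tmem100, a target of ALK1 signalling, had 8.83 ± 0.626 against 16.0 ± 2.80 CPM (-0.86, adjusted p = 0.165), while Rgcc stood at 0.54 (adjusted p = 0.212) and Adgrl4 at 0.36 (adjusted p = 0.235).

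Of 7 other lymphatic genes tested, edgeR called 0 in each comparison, beside the same shares of all genes. The list of 8 summed to 219, 263 and 194 CPM in the WT libraries and 178, 190 and 164 in the Hete KO libraries. In the Homo KO libraries it summed to 250, 196 and 161, which overlapped WT. The median log2 fold change against WT was -0.02 in Hete KO and -0.14 in Homo KO. Pdpn, podoplanin of lymphatic endothelium and fibroblasts, had 2.61 ± 0.288 CPM in Hete KO and 5.07 ± 0.435 in WT (-0.96, SE 0.237, edgeR adjusted p = 0.0765). Ackr4, a scavenger receptor of chemokines, went the other way, with 20.7 ± 7.87 against 9.08 ± 2.66 CPM (1.19, adjusted p = 0.0820) in Hete KO, and 17.6 ± 4.39 CPM (0.95, adjusted p = 0.217) in Homo KO. B cell and lymph node markers (10 genes, none at 0) summed to 16.4 to 18.3 CPM in the WT libraries and to 20.3 to 33.0 in all 6 KO libraries, and their part in the Ackr4 values was not tested. In Hete KO against WT, Dpp4 of the fibroblast list and C1qc of the macrophage list were called lower.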
